A study of Mus musculus with 9 samples.

Results

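Elastin and the proteins that place it in the extracellular matrix were followed in sorted tendon-lineage cells of the mouse forelimb, through 8 genes: elastin (Eln), the fibulins Fbln1, Fbln2, Fbln5, Efemp1 (fibulin-3) and Efemp2 (fibulin-4), and the emilins Emilin1 and Emilin2. Their probe sets were taken by gene symbol, with every probe set annotated to that symbol alone included. Of the 8 genes 7 had a probe set annotated to them alone, 13 probe sets in all, out of 34945 such probe sets for 18193 genes. Efemp2 was not analysed here.

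Elastic fibres have a core of crosslinked elastin, laid down on a scaffold of fibrillin microfibrils. Cells secrete the soluble monomer tropoelastin, short fibulins carry it and lysyl oxidases to the microfibrils, and lysyl oxidases crosslink it. The longer fibulins bind fibronectin, proteoglycans and basement membrane proteins, and emilins sit where elastin meets the microfibrils. In tendon, elastic fibres run between collagen bundles and around the cells.

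All samples came from Scx-GFP mouse embryos, whose green fluorescent protein marks cells expressing Scx (scleraxis, a transcription factor of tendon progenitors). Forelimb cells were released with trypsin, and the GFP-positive fraction was sorted at 3 stages, named by embryonic day, the first E11.5, the next E12.5 and the last E14.5. There were 3 arrays for each stage, lettered A, B and C, and no arm without the reporter or without sorting. Strain, sex, the number of embryos pooled and the sorter used for each sample are not given in the sources used here. It is also not given whether a stage's arrays stem from different litters, so p-values measure the spread between these samples, which may be technical. RNA was read on Affymetrix Mouse Genome 430 2.0 arrays as 1 fluorescence intensity, the signal, per probe set. Signals of different probe sets depend on their probes and were not compared as levels.

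Across the whole series, 11575 genes were bright enough to test, and array medians lay between 68.7 and 118. The sorted cells carried Scx, the gene of their label, with mean signals of 19338, 16656 and 11152 at the 3 stages in order. Tnmd (tenomodulin, of differentiated tenocytes) had means of 21.4, 107 and 8066, the first under the floor of 22.7 set for the analysis. The signal summed over 8 tendon markers ran from 16962 to 24546 at E11.5, from 22273 to 22517 at E12.5 and from 41719 to 58043 at E14.5. Scx made up most of this sum at E11.5 and E12.5 but not at E14.5. On the B arrays it was 21375 of 23546, 16654 of 22517 and 8692 of 41719 at the stages in order. Scx differed by -0.81 ± 0.22 (log2, SE) at E14.5 (limma, adjusted p = 0.0164), a call that array B or C of E11.5 and array A or B of E14.5 each carried (adjusted p up to 0.0589 when one was left out). One array stood apart: 8 cartilage markers summed to 76348 on E14.5 A, against 18300 on E14.5 B and 8806 on E14.5 C. The rise of each called elastin, fibulin or emilin gene of the set over the whole course is therefore also given without E14.5 A. From the partner lists it is given so only for Fbln7 and Acan.

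Promoter sequence was examined for the genes with a window in RefSeq (GRCm38.p6), 250 bases before to 50 after the annotated start, since scleraxis is a basic helix-loop-helix factor and that class binds E-boxes. Of the 8 genes 7 had at least 1 window, and Eln had none. Capitals mark E-boxes (CANNTG) and GC boxes (GGGCGG, read on both strands, hence also CCGCCC). Fbln5 and Efemp1 are shown because their signal rose in the first interval, and Fbln2 and Fbln1 because the ratio of these related genes changed.
Fbln5, chr12:101819070-101819369, minus strand: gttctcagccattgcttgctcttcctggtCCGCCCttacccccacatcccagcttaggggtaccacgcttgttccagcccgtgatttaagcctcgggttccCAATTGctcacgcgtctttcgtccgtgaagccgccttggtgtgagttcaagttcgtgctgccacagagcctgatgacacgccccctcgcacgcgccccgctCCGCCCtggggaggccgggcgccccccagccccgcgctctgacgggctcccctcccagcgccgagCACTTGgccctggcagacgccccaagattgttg
Efemp1, chr11:28852955-28853254, plus strand: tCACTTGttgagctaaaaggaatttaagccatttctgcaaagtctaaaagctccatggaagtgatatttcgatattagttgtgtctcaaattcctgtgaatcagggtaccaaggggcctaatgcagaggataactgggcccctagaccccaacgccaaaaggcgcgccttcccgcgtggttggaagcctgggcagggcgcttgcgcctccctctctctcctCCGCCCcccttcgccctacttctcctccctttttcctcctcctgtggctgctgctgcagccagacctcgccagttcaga
Fbln2, chr6:91212514-91212813, plus strand: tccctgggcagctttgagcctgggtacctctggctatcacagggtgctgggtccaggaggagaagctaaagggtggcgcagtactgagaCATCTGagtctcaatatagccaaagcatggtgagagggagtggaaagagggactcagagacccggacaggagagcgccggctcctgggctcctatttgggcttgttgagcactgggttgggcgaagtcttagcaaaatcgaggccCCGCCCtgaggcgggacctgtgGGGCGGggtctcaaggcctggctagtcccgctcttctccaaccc
Fbln1, chr15:85205699-85205998, plus strand: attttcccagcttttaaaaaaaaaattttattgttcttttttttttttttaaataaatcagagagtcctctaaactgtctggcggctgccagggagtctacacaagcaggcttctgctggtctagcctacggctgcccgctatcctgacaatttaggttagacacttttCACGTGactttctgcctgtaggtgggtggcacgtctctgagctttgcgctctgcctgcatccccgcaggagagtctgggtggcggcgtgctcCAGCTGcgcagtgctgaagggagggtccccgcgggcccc

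The Fbln5 window held 2 E-boxes and 2 GC boxes, and a CCAAT match that overlaps one of the E-boxes. A second Fbln5 window, at a downstream start, held 0 of either motif. Efemp1 had 1 of each and 1 AP-1 match (TGANTCA), and Fbln2 had 1 E-box and 2 GC boxes. The Fbln1 window shown had 2 E-boxes, among them the palindrome CACGTG, and 0 GC boxes, while an overlapping Fbln1 window at a later start had 2 of each. Among all 32851 windows of this length, 72.3% held an E-box and 35.7% a GC box. CCAAT was in 37.4% of them, the AP-1 match in 7.81% and TATAAA in 13.6%. None of the 4 printed windows held TATAAA. An E-box therefore did not set these windows apart, and a match is a description of the letters, not a binding site.

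Between E11.5 and E14.5 6 of the 7 measured genes rose and Fbln1 did not differ by the test. The 6 were Eln, Fbln2, Fbln5, Efemp1, Emilin1 and Emilin2, with log2 changes from 0.95 (Emilin1) to 3.54 (Fbln5). Here "rose" and "called" stand for an adjusted p under 0.05 in limma, with Benjamini-Hochberg adjustment over all genes tested. The time course changed much of the transcriptome: 40.5% of genes were called, 22.9% higher and 17.7% lower, against which the 6 of 7 should be read. The median change of the 7 genes was 1.37, and that of all genes tested 0.0035. The F-test for any difference among stages called the same 6 genes, beside 33.7% of all genes, and 4 with median centring of the arrays, without Emilin1 and Emilin2. Because the RNA came from bulk samples, fewer cells of a type and less RNA per cell cannot be told apart.

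**Figure D1:**
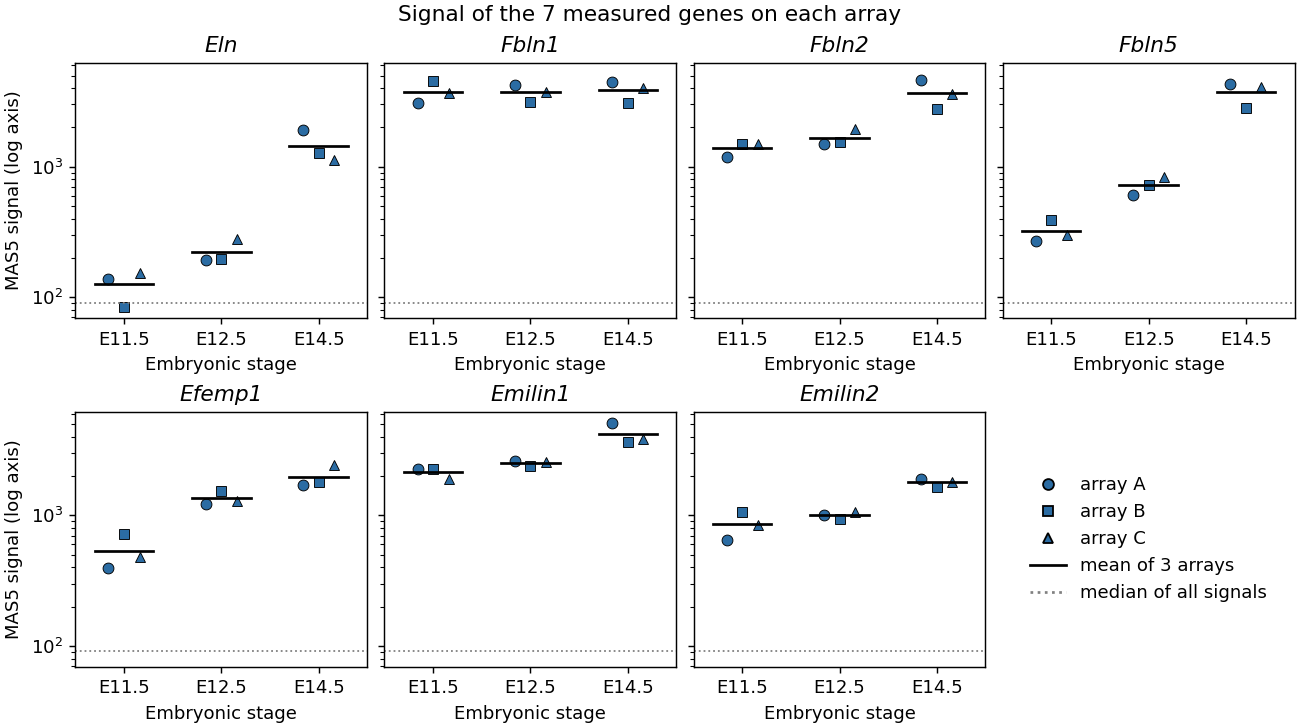
MAS5 signal (log axis) of the 7 measured genes on each array by embryonic stage; points are arrays, with the letter given by the marker shape, bars are stage means and the dotted line is the median of all signals (90.6). Eln and Fbln5 stand far higher on all E14.5 arrays than on any other, Efemp1 is already higher at E12.5, and the 3 stages of Fbln1 overlap.

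Eln encodes tropoelastin, the elastic core itself. Its signal (probe set 1420855_at) was 137, 84.9 and 155 on arrays A, B and C at E11.5, then 193, 197 and 278 at E12.5, and 1899, 1276 and 1119 at E14.5. The 3 stages did not overlap, and the E11.5 B array was the only one below the median of all signals. The mean went from 126 ± 36.3 (SD, n = 3) to 223 ± 48.2 and then 1431 ± 412. From E11.5 to E14.5 Eln rose by a log2 change of 3.52 ± 0.27 (SE) with a 95% interval of 2.90 to 4.13 (limma, adjusted p = 1.59e-05). Of the 11575 genes tested, 117 had a larger rise. The change from E11.5 to E12.5 was 0.85 ± 0.27 and was not called (adjusted p = 0.153), although all E12.5 arrays were above all E11.5 arrays, as for 15.8% of genes. From E12.5 to E14.5 Eln rose by 2.67 ± 0.27 (adjusted p = 0.00025), and 102 genes had a larger rise in that interval. Without E14.5 A the rise over the whole course was 3.30.

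Fbln5 encodes fibulin-5, a short fibulin that binds tropoelastin, cell-surface integrins and lysyl oxidase-like 1 and is needed for elastic fibre assembly. Its signal (1416164_at) was 271, 388 and 300 at E11.5 on arrays A, B and C. It reached 603, 724 and 836 at E12.5 and 4319, 2811 and 4089 at E14.5, so the stages were again fully apart. The means were 319.9 ± 61.1, 721 ± 117 and 3739 ± 812 (SD, n = 3). Fbln5 rose by a log2 change of 3.54 ± 0.21 or 11.6-fold (limma, adjusted p = 3.65e-06), with 113 genes above it, and the interval of Eln (2.90 to 4.13) overlaps its own (3.06 to 4.02). Without E14.5 A it rose by 3.42, and with the mean of its probe sets, which brings in a dim one, by 1.94. The rise was present in both intervals, 1.18 ± 0.21 to E12.5 (adjusted p = 0.0201) and 2.36 ± 0.21 to E14.5 (adjusted p = 0.000118). This E12.5 call did not hold when array A or C of E11.5 or array B or C of E12.5 was left out (adjusted p up to 0.0900), when dim genes were kept in (0.0751), when arrays were centred on their medians (0.0984) or when all letter A arrays were dropped (0.0656). With the mean of its probe sets the change to E12.5 was 0.31 (adjusted p = 0.693).

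Efemp1 encodes fibulin-3, a further short fibulin, found in fascia and other connective tissue. On arrays A, B and C its signal (1427183_at) was 394, 721 and 479 at E11.5, and 1216, 1543 and 1289.6 at E12.5. At E14.5 it was 1708, 1805 and 2418. The stages did not overlap, but the gap between E12.5 and E14.5 was small beside that between E11.5 and E12.5. The means were 531 ± 169, 1349.7 ± 172 and 1977 ± 385 (SD, n = 3). Efemp1 rose by 1.38 ± 0.23 to E12.5, 2.61-fold (limma, adjusted p = 0.014), with 156 of 11575 genes rising more. From E12.5 to E14.5 its change was 0.54 ± 0.23, with a 95% interval of 0.02 to 1.06, and was not called (adjusted p = 0.126). Over the whole course it rose by 1.92 ± 0.23 (adjusted p = 0.000219), and by 2.02 without E14.5 A. The E12.5 call was lost without E12.5 B (adjusted p = 0.0719) or E12.5 C (0.0570), with no filter on dim genes (0.0668) and without the letter A arrays (0.0680). The change to E14.5 was called with the ratio of 3' to 5' control signals as a covariate (0.60, adjusted p = 0.0464).

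Fbln1 encodes fibulin-1, a long fibulin that binds fibronectin, nidogen and the lectican proteoglycans. Its signal (1451119_a_at) was 3102, 4506 and 3668 at E11.5, 4266, 3158 and 3725 at E12.5, and 4469, 3074 and 3996 at E14.5. All 3 stages overlapped, with both the lowest and nearly the highest array at E14.5. The means were 3759 ± 707, 3716 ± 554 and 3847 ± 709 (SD, n = 3). The change from E11.5 to E14.5 was 0.03 ± 0.20, with a 95% interval of -0.41 to 0.48 (limma, adjusted p = 0.911), and its sign turned to -0.17 with median centring of the arrays. Changes within this interval were not detectable with 3 arrays per stage. The changes in the intervals were -0.01 (adjusted p = 0.987) and 0.04 (adjusted p = 0.897).

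Fbln2 encodes fibulin-2, a long fibulin of basement membranes and of embryonic connective tissue. Its signal (1423407_a_at) was 1197, 1491 and 1496 at E11.5, and 1502, 1543 and 1955 at E12.5. At E14.5 it was 4640.5, 2758 and 3599, above every earlier array. E12.5 A was barely above E11.5 C, so the first 2 stages nearly met. The means were 1395 ± 172, 1667 ± 251 and 3666 ± 943 (SD, n = 3). Fbln2 rose 2.58-fold by E14.5, log2 1.37 ± 0.21 (limma, adjusted p = 0.000769), and 1.18 without E14.5 A. In the second interval it rose by 1.12 ± 0.21 (adjusted p = 0.00521), and in the first its change was 0.25 (adjusted p = 0.611). With the mean of its probe sets, which brings in a dim one, the rise over the whole course was 0.23 and was not called (adjusted p = 0.383). With median centring the second interval was not called either (adjusted p = 0.0542).

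Emilin1 encodes a glycoprotein of the interface between elastin and microfibrils, which also restrains the processing of the TGF-beta precursor. The signal of its brighter probe set (1416414_at) was 2270.1, 2258 and 1910.5 at E11.5, and 2588, 2374 and 2579.8 at E12.5. At E14.5 it was 5073, 3633 and 3863. No stages overlapped. The means were 2146 ± 204, 2514 ± 121 and 4189.97 ± 773 (SD, n = 3). Emilin1 rose by 0.95 ± 0.16 over the course, 1.94-fold (limma, adjusted p = 0.00121), and by 0.81 without E14.5 A. It changed by 0.23 to E12.5 (adjusted p = 0.526) and rose by 0.72 from there to E14.5 (adjusted p = 0.0106). With median centring the rise over the course was 0.76 and no longer called (adjusted p = 0.115). The second-interval call was lost with median centring (0.345), with the mean of probe sets (0.0526) and without the letter A arrays (0.0707).

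Emilin2 encodes a second member of the emilin family, with the same EMI domain. Its signal (1435264_at) was 652, 1054 and 847 at E11.5, 1013, 932 and 1063 at E12.5, and 1909, 1655 and 1808 at E14.5. The first 2 stages overlapped and the E14.5 arrays lay above both. The means were 851 ± 201, 1003 ± 66.2 and 1791 ± 128 (SD, n = 3). The rise over the course was 1.1 ± 0.18, 2.14-fold (limma, adjusted p = 0.00113), and 1.05 without E14.5 A. The first interval gave 0.26 (adjusted p = 0.528) and the second a rise of 0.84 (adjusted p = 0.00987), which was not called with median centring (0.21).

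The intervals called different numbers of these genes. From E11.5 to E12.5 2 of 7 rose, Fbln5 and Efemp1, where 3.55% of all genes were called, 3.11% higher and 0.441% lower. From E12.5 to E14.5 5 of 7 rose, all of the 6 except Efemp1, where 22% were called, 12.6% higher and 9.32% lower. With median centring 2 of these 5 were called, Eln and Fbln5. The median change of the 7 was 0.26 in the first interval and 0.84 in the second, against 0.04 and -0.05 over all genes. These intervals share the E12.5 arrays and last 1 and 2 days. The difference between them was tested directly, as the second change minus the first, and limma called 0 of the 7 after adjustment, beside 0.769% of all genes. The largest positive differences, none of them called, were 1.82 for Eln (limma, adjusted p = 0.149), 1.19 for Fbln5 (adjusted p = 0.235) and 0.86 for Fbln2 (adjusted p = 0.388). Efemp1 was the only gene of the 7 with a smaller second change, by -0.84 with a 95% interval of -1.74 to 0.06 (adjusted p = 0.48).

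**Figure D2:**
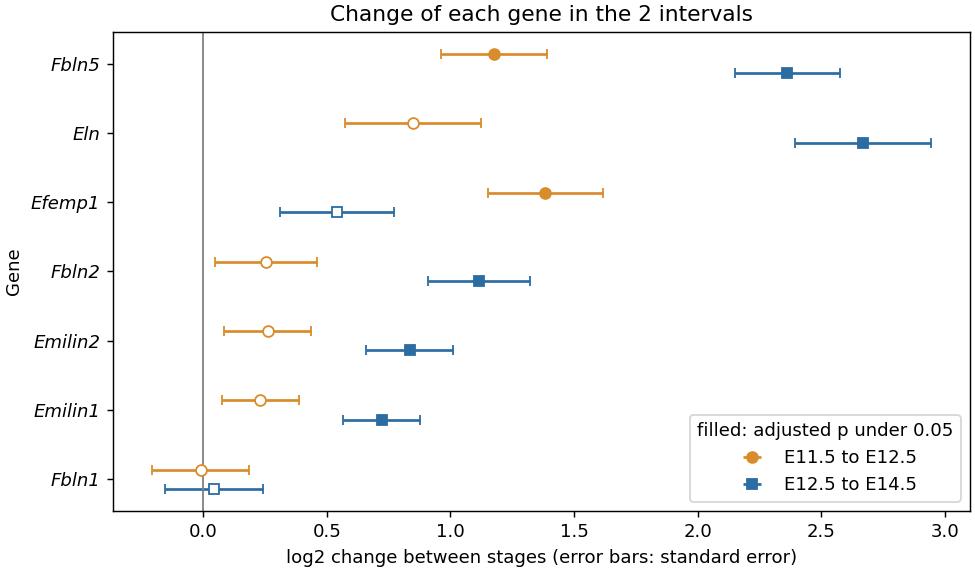
log2 change of each gene from E11.5 to E12.5 (orange circles) and from E12.5 to E14.5 (blue squares), with standard errors; filled symbols are called at an adjusted p under 0.05 and the vertical line marks no change. Eln and Fbln5 have their larger change in the second interval (2.67 and 2.36), Efemp1 in the first (1.38), and both changes of Fbln1 lie near 0.

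For 5 of the 7 genes, Eln, Fbln2, Fbln5, Efemp1 and Emilin1, the 3 stages stood apart in rising order, a pattern that 8.12% of all tested genes showed. Every E14.5 array exceeded every E11.5 array for the 6 called genes, as for 27.3% of all genes. Every E14.5 array also exceeded every E12.5 array for these 6, as for 20.6% of all genes.

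Whether related genes changed by unequal amounts was asked from the log2 ratio of 2 genes within each array, in 4 pairs. The slope of the ratio on embryonic day was tested by exact permutation of the 9 arrays over the stages (1680 assignments, two-sided, smallest possible p = 0.000595), with adjustment over the 4 pairs, 1 of them described below without its p. Only the change of a ratio has meaning here, since it compares different probes. The pairs, like the lists, were chosen with earlier results of these data known. The ratio of Fbln2 to Fbln1 climbed by 0.46 per day, from a mean of -1.42 ± 0.16 (SD, n = 3) at E11.5 to -1.16 ± 0.31 and then -0.08 ± 0.12 (exact p = 0.00179, adjusted p = 0.00714). This ratio rests on the brightest probe set of each gene. With the mean of probe sets the changes over the course were 0.23 for Fbln2 and 0.29 for Fbln1, and the ratio was not tested on that scale. For the emilins the slope of Emilin2 over Emilin1 was 0.05 per day (exact p = 0.485, adjusted p = 0.647), and no unequal change was detectable. Fbln5 over Eln had a slope of -0.02 per day (exact p = 0.908), with a wide spread at E11.5 (SD 0.71), so this pair does not show that they changed alike.

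The pair Efemp1 and Fbln5 was added after their values were seen to diverge, so its change is a description, with no test. Its ratio was 0.70 ± 0.18 (SD, n = 3) at E11.5, 0.91 ± 0.25 at E12.5 and -0.91 ± 0.37 at E14.5, and the 3 E14.5 arrays lay below all others. The slope was -0.59 per day, between -0.65 and -0.49 with single arrays left out and -0.53 without the letter A arrays.

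**Figure D3:**
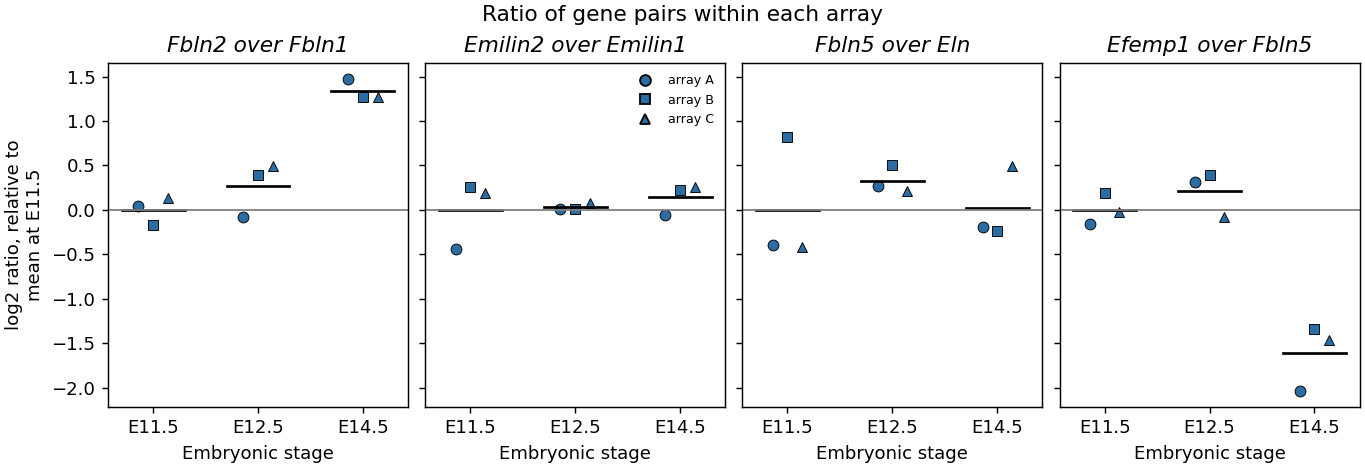
log2 ratio of 2 genes within each array, set to the mean at E11.5, by embryonic stage; points are arrays and bars stage means. Fbln2 over Fbln1 is higher on all E14.5 arrays, Efemp1 over Fbln5 is lower on all E14.5 arrays, and the other pairs show no separation of stages.

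Where a gene had several probe sets, they were fitted among the 20885 probe sets bright enough to test. Of the 13 probe sets of these genes 11 were bright enough to test, and 8 of the 11 were called from E11.5 to E14.5, all higher, beside 31.2% of the 20885. In the first interval 2 were called, beside 1.35%, and in the second 6, beside 14.1%. The other Eln probe set, 1420854_at, was between 4.25 and 9.44 on all 6 arrays of E11.5 and E12.5, below the floor of 22.7 set for the analysis. At E14.5 it read 347, 103 and 295 on arrays A, B and C, a rise of 3.27 ± 0.38 measured from that floor (limma, adjusted p = 0.000389). The probe sets of Eln thus showed the same direction.

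For Fbln1, 1422540_at had means of 2049, 1917 and 2264 and a change of 0.14 (limma, adjusted p = 0.613), while the dim 1439688_at had a change of 0.71 ± 0.48 (adjusted p = 0.3). Neither was called, as for the probe set used above. Emilin1 was also read by 1431834_a_at, with means of 459, 608 and 821 and a rise of 0.82 ± 0.23 over the course (limma, adjusted p = 0.0268). Its changes in the intervals, 0.40 and 0.42, were not called (adjusted p = 0.555 and 0.27). The dim probe sets 1438375_at of Fbln2 and 1446377_at of Fbln5 exceeded the median of all signals on 1 and 0 arrays and were not tested. Their means at E11.5 and E14.5 were 78.0 and 40.9 for Fbln2, opposite in order to the bright probe set, and 31.4 and 45.6 for Fbln5.

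**Figure D4:**
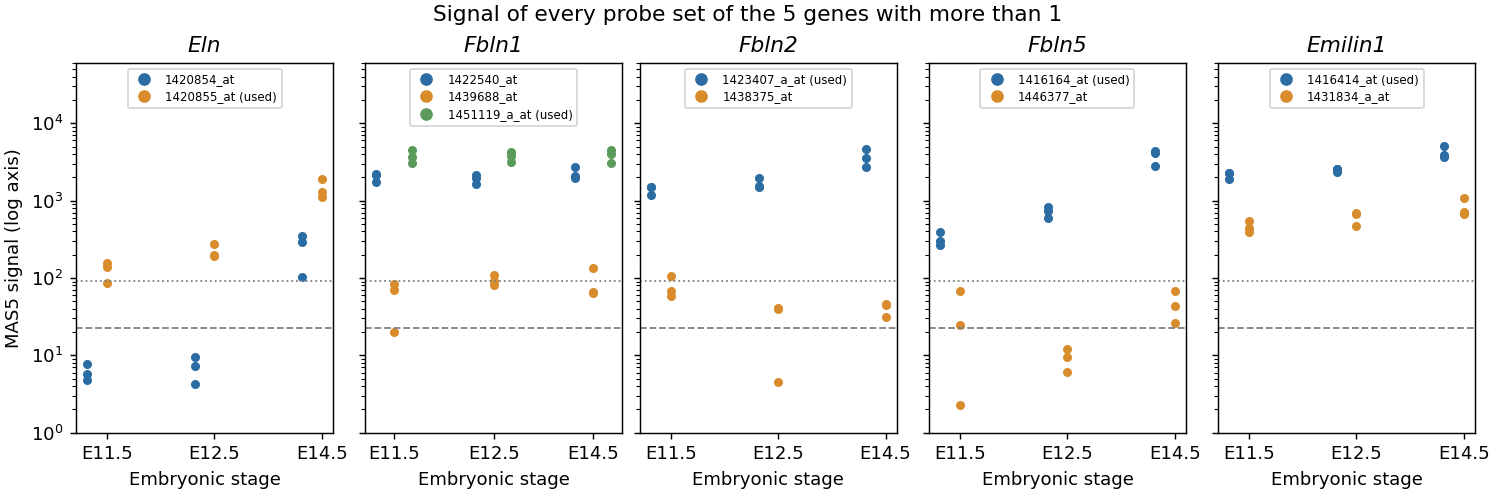
MAS5 signal (log axis) of every probe set of the 5 genes with more than 1, by array and stage; colours separate probe sets, the dashed line is the floor (22.7) and the dotted line the median of all signals (90.6). Both Eln probe sets are higher at E14.5, the stages of both brighter Fbln1 probe sets overlap, and the dim Fbln2 and Fbln5 probe sets lie near or under the median.

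Over the 9 arrays the log2 signals of Eln and Fbln5 correlated with Pearson's r of 0.96, and Fbln1 with the other 6 genes between 0.05 and 0.36. Efemp1 correlated with the 5 other called genes between 0.75 and 0.88. These values describe 9 arrays that fall into 3 stages, so they are not 9 independent points. By the same measure, the tested genes outside the family closest to Eln were Abhd14a (0.992), Cavin3 (0.991) and the fibril-associated collagen Col14a1 (0.990). The measure ignores the size of a change: Abhd14a rose by a log2 change of 0.96 over the course and Col14a1 by 5.16. Closest to Fbln5 were Col5a1 (0.997), Esyt1 (0.996) and Col6a1 (0.996), of which Col5a1 and Col6a1 encode collagen V and VI chains. Closest to Efemp1 were Ebf3 (0.985), Rnf152 (0.981) and Alcam (0.980). Fbln2 was closest to P3h3 (0.990), Prr16 (0.990) and Mxra8 (0.989), Emilin1 to Desi2 (0.995), Sar1a (0.994) and Txndc5 (0.993), and Emilin2 to Mapk13 (0.989), Abca3 (0.986) and Abhd2 (0.986). For Fbln1 the nearest were Gm5802 (0.905), Spns1 (0.891) and Kyat1 (0.876), lower than for every other gene.

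Other genes of the same pathway were read from lists by role, with the change from E11.5 to E14.5 first. Each count is to be read against the 22.9% of all genes called higher and 17.7% called lower over the course, 3.11% and 0.441% in the first interval, and 12.6% and 9.32% in the second. Among relatives of the fibulins and emilins, 3 of 4 tested genes rose and 0 fell. They were Emilin3 (log2 2.31 ± 0.25, limma adjusted p = 0.000125), Emid1 (2.05 ± 0.33, adjusted p = 0.00108) and Fbln7 (2.31 ± 0.63, adjusted p = 0.0165). Hmcn1, which encodes the large fibulin relative hemicentin-1, had a change of 0.86 (adjusted p = 0.129). The call of Fbln7 was lost with the higher floor (1.41, adjusted p = 0.0516), with no filter, with quantile normalization and without E11.5 B, and its rise was 1.52 without E14.5 A. Hmcn2 was not analysed here, and Mmrn1 and Mmrn2 were too dim to test.

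Among microfibril genes and latent TGF-beta binding proteins, 8 of 9 rose and 0 fell, with a median change of 1.22. Mfap5, which encodes a microfibril-associated glycoprotein, rose by 4.32 ± 0.32 (limma, adjusted p = 1.24e-05). Ltbp2, a fibrillin-binding protein gene, rose by 3.81 ± 0.48 (adjusted p = 0.000295; 2.21 with the higher floor), and Ltbp3, whose product stores latent TGF-beta, by 3.0 ± 0.17 (adjusted p = 3.12e-06). Mfap3 had a change of 0.15 and was not called. From E11.5 to E12.5 only Ltbp3 of the 9 was called (1.39 ± 0.17, adjusted p = 0.00439; 0.0562 with the mean of probe sets), and from E12.5 to E14.5 8 were, led by Mfap5 (3.97). Fbn1 and Mfap1a were not analysed here.

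The crosslinking enzymes followed. Lox encodes lysyl oxidase, which oxidises lysines of elastin and collagen, and its mean signal went from 439 ± 125 to 1194 ± 67.7 and 8918 ± 1624 (SD, n = 3). Lox rose by 1.48 ± 0.21 in the first interval (limma, adjusted p = 0.00748) and by 4.37 ± 0.21 over the course (adjusted p = 1.35e-06). Loxl1, the partner of fibulin-5, rose by 1.95 ± 0.17 and Loxl3 by 1.22 ± 0.24. Thus 3 of 3 tested enzymes rose over the course, 1 in the first interval and 2 in the second. Loxl4 was too dim to test and Loxl2 was not analysed here.

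Of 12 matrix partners, which are ligands of the fibulins and emilins or proteoglycans near elastic fibres, 8 rose and 1 fell. Dcn (decorin) rose by 5.21 ± 0.25 (limma, adjusted p = 1.3e-06), from a mean of 498 ± 141 to 18197 ± 3893 (SD, n = 3), and was the 1 gene of the list called in the first interval (2.26; 1.27 and not called with the mean of probe sets, adjusted p = 0.131). Bgn (biglycan) rose by 3.68 ± 0.31. Acan (aggrecan, a ligand of fibulin-1 and fibulin-2 and also a cartilage marker) rose by 3.37 ± 0.96 (adjusted p = 0.0194), but by 2.01 without E14.5 A and not by the test without E11.5 B (adjusted p = 0.0613), with no filter (0.0742) or with a trended prior (0.0540). Col18a1, the gene that fell, encodes a basement membrane collagen and changed by -0.92 ± 0.19 (adjusted p = 0.00437). In the second interval 6 of the 12 rose and 0 fell.

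Integrins are the cell-surface receptors of several of these proteins. Of 8 integrin genes 3 rose by E14.5, a share not far from the 22.9% of all genes and on few genes: Itga8 (0.99 ± 0.12, limma adjusted p = 0.000277), Itgb1 (0.80 ± 0.13, adjusted p = 0.00118) and Itgb5 (0.73 ± 0.15, adjusted p = 0.00379). None of these 3 calls held with median centring (adjusted p = 0.0813, 0.187 and 0.261), and Itgb1 was at 0.32 with the mean of probe sets (adjusted p = 0.0988). Itga4 and Itga9, which encode the integrin chains reported to bind emilin-1, had changes of -0.05 and -0.08, and Itgav, which encodes a chain that binds fibulin-5, of 0.13, none called. In the first interval 0 of 8 were called by limma and in the second 3.

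In a list of genes for the elastin receptor complex, for proteases and for related matrix proteins, 10 of 12 rose and 0 fell over the course. The 2 not called were Adamtsl2 (-0.18, limma adjusted p = 0.505) and Adamts10 (0.32, adjusted p = 0.089). The receptor complex genes Glb1, Ctsa and Neu1 rose by 0.72, 0.81 and 0.70. Among the elastin-degrading proteases, Ctsk (cathepsin K) rose by 3.90 ± 0.25 (limma, adjusted p = 5.02e-06), Ctss (cathepsin S) by 2.46 ± 0.46 (0.66 and not called with the higher floor) and Mmp9 by 2.04 ± 0.51 (adjusted p = 0.011; 0.0847 without the letter A arrays). In the first interval 0 of the 12 were called, and in the second 7, led by Ctsk (2.84). Mmp12 was too dim to test.

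**Figure D5:**
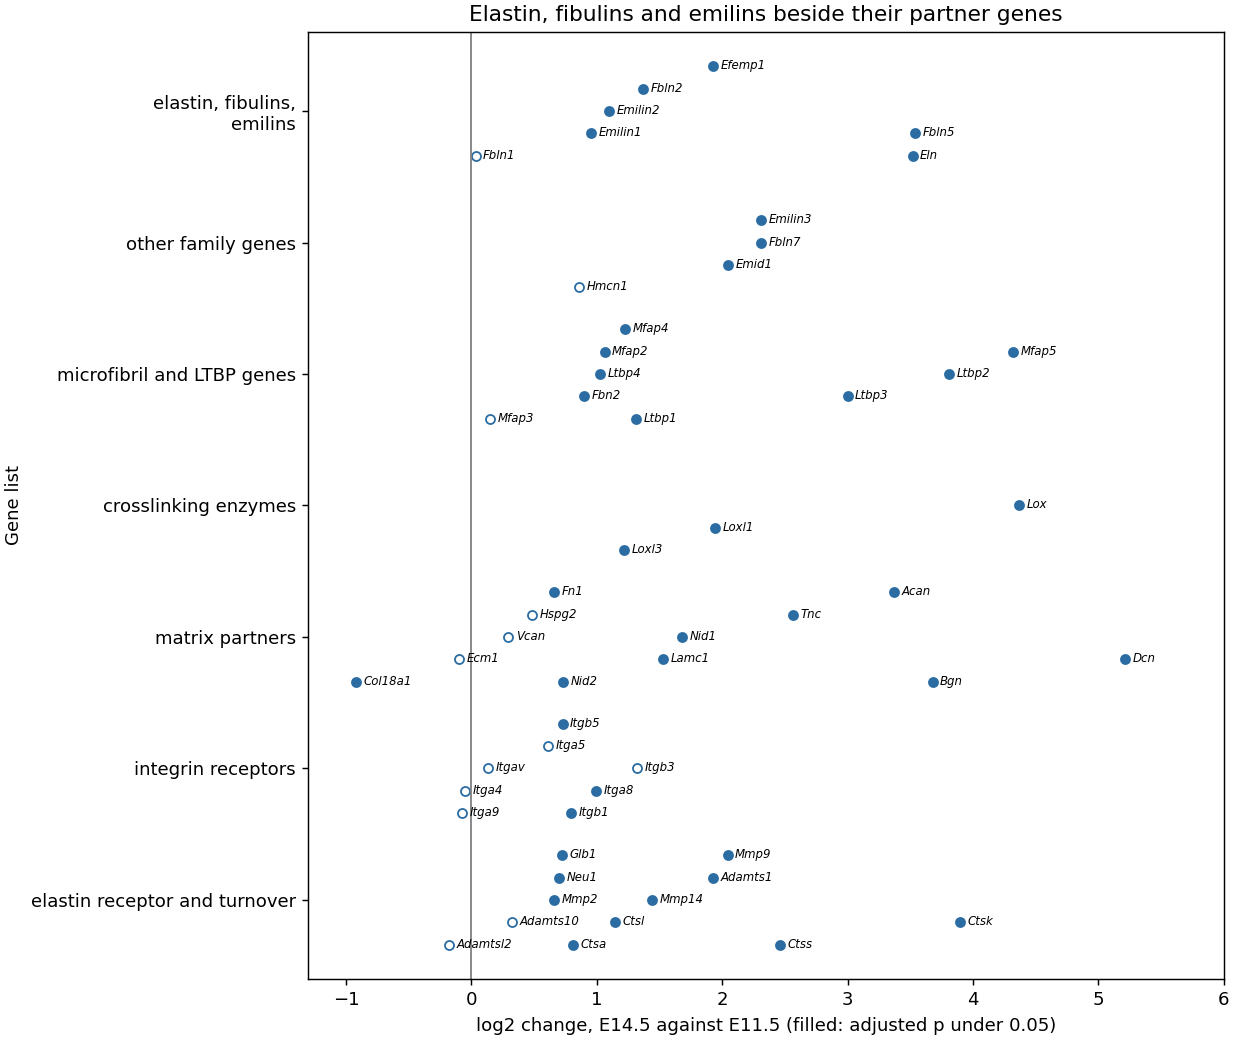
log2 change from E11.5 to E14.5 of each tested gene of the family and of 6 lists of partner genes, 1 row of points per list; filled points are called at an adjusted p under 0.05 and the vertical line marks no change. Points lie mostly to the right of the line in each list, with Dcn (5.21), Lox (4.37) and Mfap5 (4.32) farthest right and Col18a1 (-0.92) the only filled point to its left.

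Markers of other cells that make elastic fibres or could enter the sort were read in the same way. Of all genes 22.9% were called higher and 17.7% lower over the course, against which these counts should be read. The summed signal of 12 smooth muscle and pericyte markers was 10124 to 11682 at E11.5, 9934 to 12084 at E12.5 and 12078 to 15232 at E14.5, and 7 of 10 tested rose by E14.5 while 1 fell (Notch3). The sum is carried by bright genes such as Pdgfrb, and the markers that rose were dimmer at E11.5: Abcc9 (log2 4.39), Mcam (3.29), Kcnj8 (3.14), Cspg4 (2.37), Tagln (2.26), Rgs5 (2.00) and Des (1.19). The defining smooth muscle genes Myh11 and Cnn1 were too dim to test, with means of 19.4 and 26.5 at E14.5. Endothelial markers summed to 294 to 597, 434 to 708 and 1107 to 1480, and 4 of 4 tested rose, while Pecam1, Cldn5, Tie1 and Esam were too dim to test. Fibroblast markers of other connective tissue summed to 8569 to 11351, 10769 to 12405 and 15209 to 19713, and 4 of 6 rose. Most of this sum was Pdgfra (6770 of 8569 on E11.5 A), which was not called (limma, adjusted p = 0.114).

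Cartilage markers ran from 15710 to 18902 at E11.5, from 24673 to 30037 at E12.5 and from 8806 to 76348 at E14.5, with 5 of 8 higher by the test. The E14.5 arrays differed widely: Matn1 read 6529, 613 and 114 on A, B and C, and Acan 5409, 554 and 185. On E14.5 C the summed signal, 8806, was below that of every E11.5 array. Skeletal muscle markers summed to 3878 to 6510, 6054 to 11030 and 8734 to 11663, epithelial markers to 974 to 1113, 1141 to 1361 and 1301 to 1622, and nerve and glia markers to 2199 to 2324, 3088 to 3339 and 3605 to 4606. By E14.5 3 of 9 tested muscle markers were higher and 1 lower, 3 of 5 epithelial markers higher and 1 lower, and 1 of 3 nerve and glia markers higher and 1 lower. Beside the 22.9% of all genes called higher and 17.7% lower, the muscle and nerve counts, on so few genes, do not stand apart. Blood markers summed to 462 to 2715, 502 to 1914 and 379 to 934, a sum in which the globin gene Hbb-y had means of 1109.5 at E11.5 and 242 at E14.5. The change of Hbb-y was not called (limma, adjusted p = 0.113). Its E11.5 mean rested mostly on array A, with 2569 against 422 on B and 339 on C. The macrophage gene Csf1r was higher at E14.5 (0.86, limma adjusted p = 0.0161), 1 of 2 tested, and Tyrobp, too dim to test, had means of 28.4 and 101. The part of these cells in the changes of elastin, the fibulins and the emilins was not tested. Without E14.5 A, the array with the highest cartilage sum, all 6 genes were still called. Leaving out that array does not test the part of cartilage cells, since Matn1 still read 613 and Acan 554 on E14.5 B.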

How the data were processed

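The values analysed are signals, 1 intensity per probe set and array on a linear scale, made by the authors with the MAS5 method of Affymetrix Expression Console, version 1.1, as the submitters' processing notes state. The deposited signals span 0.0409 to 45906.5, and their mean without the extreme 2% at either end was 500 on each array, so no scaling was added. Total RNA (100 ng) had been amplified from the 3' end, per the labels' protocols. Precision is limited by how many arrays there were.

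Of 45101 probe sets, 64 controls, 932 with several symbols and 9160 unlisted in the platform annotation were left out. A gene was read from its brightest probe set by mean log2 signal (names ending in _x_at only where no other existed). Signals under 22.7 (the 25th percentile) were set to it, and genes above 90.6 (the median) on at least 3 of 9 arrays were tested. limma 3.58.1 in R 4.3.3 fitted log2 signals with a mean for each stage over the 9 arrays, leaving 6 residual degrees of freedom, two-sided, with Benjamini-Hochberg adjustment and a threshold of 0.05. Means and SDs are of signals before the floor. The scripts were tested on simulated data.

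The members, the 15 lists and the rules were chosen with earlier results of these data known. Named are all members, from each partner list up to 3 called genes with the largest change over the course and 1 in each interval, the 3 genes most like each member, and Scx and Tnmd. A few further list members are named to fill in a list, picked with their values known. Promoters are from RefSeq (GRCm38.p6).

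Arrays with the same letter were checked as pairs: deviations from stage means correlated with r of 0.520, 0.133 and 0.332 (A, B, C) for E11.5 and E12.5, 0.310, 0.121 and 0.289 for E12.5 and E14.5, and 0.313, -0.00516 and 0.238 for E11.5 and E14.5. What a letter stands for is not given in the sources used here, so the main analysis is unpaired.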

Additional observations from a re-analysis of the deposited data

How the results depend on the processing

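With 3 arrays per stage the calls in the first interval were the least firm. Of the 7 genes 2 were called from E11.5 to E12.5. This became 0 with no filter on dim genes, 1 with the mean of probe sets (Efemp1), 1 with median centring (Efemp1), 0 without the letter A arrays, and 0 to 2 with single arrays left out. The probe sets called there fell to 0 with no filter. From E12.5 to E14.5 5 genes were called, and 2 (Eln and Fbln5) with median centring, where Fbln2, Emilin1 and Emilin2 had adjusted p-values of 0.0542, 0.345 and 0.21. For any difference among stages 4 of the 7 were called with median centring, against 6. The cause was not tested. Emilin1 also lost its call from E12.5 to E14.5 with the mean of probe sets (limma, adjusted p = 0.0526) and without the letter A arrays (0.0707). The 6 calls over the whole course held with each single array left out. They became 5 with median centring, without Emilin1 (limma, adjusted p = 0.115), and 5 with the mean of probe sets, without Fbln2 (0.383).

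The replicate block, with the array letters as a block, called 6, 2, 5 and 0 of the 7 genes over the course, in the first interval, in the second interval and for the difference between intervals, as without it, and 5262 against 4691 genes over the course. It changed no call of these genes; Efemp1 from E12.5 to E14.5 had an adjusted p of 0.0788.

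Values that changed sign were those of Fbln1, of Fbln2 in the first interval and of 2 ratios. Fbln1 over the course was -0.17 with median centring, -0.036 with array weights, -0.21 without the letter A arrays and -0.097 to 0.19 with single arrays left out. From E11.5 to E12.5 it was 0.26 with the mean of probe sets and -0.14 to 0.13 with single arrays left out. From E12.5 to E14.5 it was -0.070 with median centring and -0.074 to 0.20 with single arrays left out, and for the difference between intervals -0.22 with the mean of probe sets and -0.17 to 0.26. Fbln2 from E11.5 to E12.5 was -0.46 with the mean of probe sets. The slope of Fbln5 over Eln was 0.017 with a pseudocount, 0.014 with quantile normalization and -0.085 to 0.069 with single arrays left out, that of Emilin2 over Emilin1 -0.0052 to 0.082 with single arrays left out. The slope of Efemp1 over Fbln5, whose sign did not turn, was -0.65 to -0.49 with single arrays left out and -0.53 without the letter A arrays. Fbln5 over the course was 1.94 with the mean of probe sets.

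Median centring moved the median change of all genes by -0.20 over the course and by -0.11 in the second interval. It called 2341 in place of 4691 genes over the course, 177 in place of 411 in the first interval, 912 in place of 2542 in the second and 1775 in place of 3904 for any difference, and in the second interval 69.2% of calls were higher, against 57.6%. In the first interval 182 genes were called with no filter, 156 with the mean of probe sets and 249 without the letter A arrays. Without the letter A arrays 1084 were called in the second interval and 2280 for any difference. For the difference between intervals the counts ran from 19 with no floor to 220 with the higher floor, against 89. The pairs of Efemp2 with Fbln5 and with Efemp1 were not run, since Efemp2 was not analysed here.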
